A study of Mus with 6 samples.

Results

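The genes described here are Ccn1, Ccn2, Ankrd1, Amotl2 and Lats2, 5 genes known as targets of the transcriptional coactivator YAP and its DNA-binding partners, the TEAD factors. They were taken as a list of Ensembl identifiers, with no threshold on a measured value, and make up 5 of the 55421 genes in the count tables. Their RNA was measured by RNAseq in mouse lens epithelial cells (LECs) left on the lens capsule after the fiber cells are removed, a model of post cataract surgery (PCS) wounding. All 6 libraries came from wild type C57BL/6 mice without a transgene or deletion, aged 2 months per the labels, and the paper's methods give an older range. The 3 libraries at 0 h PCS held LECs taken directly after surgery, and the 3 libraries at 6 h PCS held LECs that had stayed in the eye for 6 h. Each library was made from a pool of 5 capsules. One eye of a mouse was operated on first and the other 6 h later, so that a 0 h and a 6 h pool can hold eyes of the same mice. Which pools share mice is not given by the labels, and the libraries were compared as unpaired. The p-values measure the spread between these pools.

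In the Hippo pathway, the MST kinases activate the LATS kinases, which phosphorylate YAP and its paralog TAZ and hold them in the cytoplasm. When this phosphorylation is low, YAP and TAZ enter the nucleus and bind TEAD factors on their target genes. The pathway is known to respond to cell density, cell shape and tension in the actin cytoskeleton, and YAP is known to be needed for the maintenance of the lens epithelium. Ccn1 and Ccn2 encode secreted matricellular proteins that bind integrins, Ankrd1 encodes an ankyrin repeat protein of the nucleus and the sarcomere, and Amotl2 and Lats2 encode inhibitors of YAP, which makes them negative feedback targets. YAP activity depends on protein phosphorylation and location, neither of which was measured here.

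The libraries held 18039974 to 24701039 counts on genes. Levels are given as CPM, the counts of a gene per 1000000 counts after TMM scaling of the library sizes, as the mean ± SD over the 3 libraries of a time point. The time points were compared with the quasi-likelihood test of edgeR over the 16810 genes that passed its filter on low counts, with Benjamini-Hochberg adjustment over all of them. Genes that changed by more than 2-fold at an adjusted p of 0.05 or less were called as DEGs. With 3 against 3 libraries, 0.10 is the smallest two-sided p of an exact permutation test, and the p-values of genes therefore come from the model across all genes. The lens epithelial markers Pax6, Foxe3, Sox2, Epha2, Gja1 and Pitx3, which are 6 of the 8 genes on that list, were detected in every library and summed to 1139 to 1344 CPM at 0 h and 1202.5 to 1415 CPM at 6 h PCS. Within this sum the genes moved in opposite directions. The receptor gene Epha2 was upregulated (log2 fold change 1.21, adjusted p 0.0134 by edgeR), while the transcription factor genes Pitx3 (-0.86, adjusted p 0.00777 by edgeR) and Sox2 (-0.70, adjusted p 0.0151 by edgeR) were lower at 6 h PCS, past the limit on p but not the 2-fold limit. With scaling on library size alone, Epha2 was not called and Pitx3 and Sox2 were called as downregulated, and Epha2 was also not called without replicate 3 at 0 h PCS.

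Ccn1 and Ankrd1 were upregulated at 6 h PCS, by 9.82-fold and 4.98-fold, and the other 3 genes did not pass the test. The upregulated genes were thus 2 of 5, where 4.53% of the 16810 genes tested were upregulated DEGs. The 5 genes and the lists below were chosen with earlier results of these data known, so such shares describe the lists and do not test them. Downregulated DEGs were 0 of 5 by edgeR (0.821% of all genes tested), and also 0 of 5 by DESeq2 (1.52%) and by the exact test of edgeR (1.51%). An unadjusted p under 0.05 was reached by 3 of 5, all higher at 6 h PCS, where 13.3% of all genes tested reached it in that direction. The 5 genes had a median log2 fold change of 1.05, against -0.003 over all genes tested. With scaling on library size alone, Ccn1 and Ankrd1 were still the upregulated 2 of 5, while upregulated DEGs were 3.4% and downregulated DEGs 3.73% of all genes tested. In Ccn1 and Ankrd1 every library at 6 h PCS was above every library at 0 h PCS, a separation seen for 15.3% of all genes tested. In bulk RNA a change in the number of cells of a type and a change in the RNA per cell cannot be told apart.

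**Figure D1:**
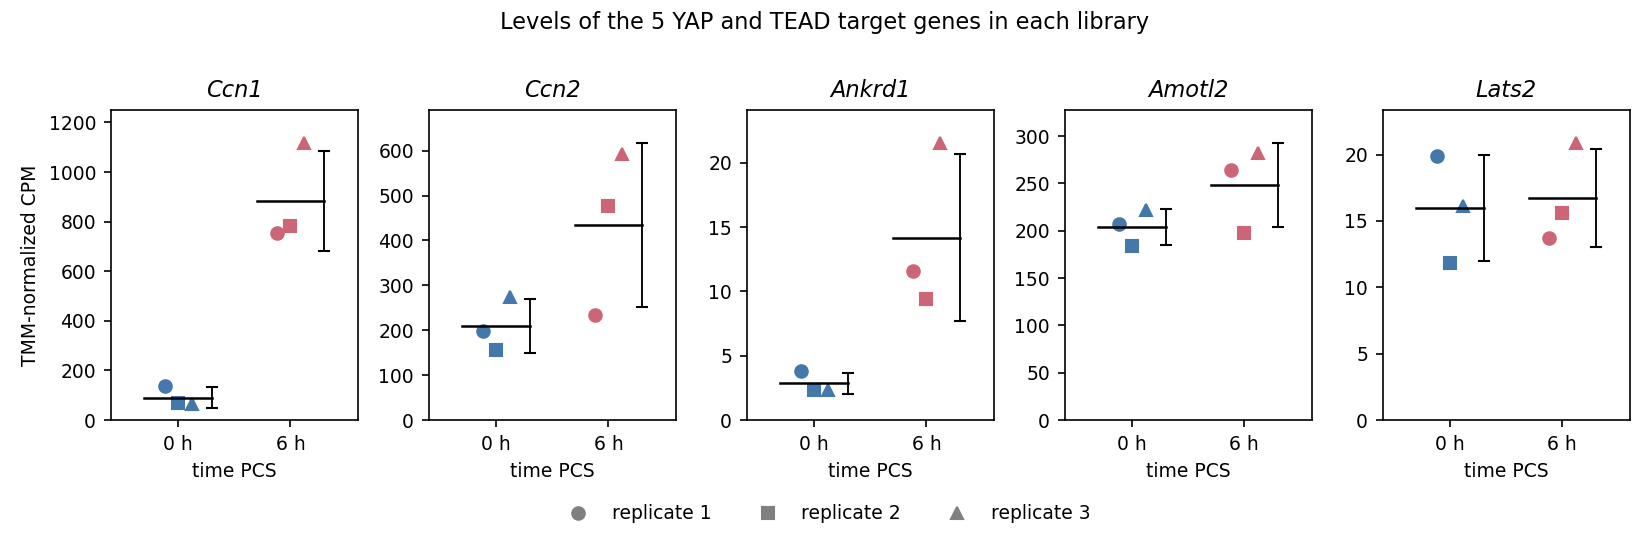
Level of each gene in CPM (TMM-scaled, linear axis from 0, own scale per gene) in the 3 libraries at 0 h PCS and the 3 libraries at 6 h PCS. Points are libraries, marked by replicate number, and the bars are the mean and SD. Ccn1 and Ankrd1 have no overlap between the time points, and Ccn2, Amotl2 and Lats2 overlap.

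Ccn1 (ENSMUSG00000028195, GRCm38 chr3:145646971-145649985) had the largest change of the 5 genes. Its counts were 3208, 1842 and 1520 in the 0 h libraries and 11254, 17442 and 18575 in the 6 h libraries, in the order of replicates 1 to 3. Scaled, they were 138, 67.0 and 65.5 CPM at 0 h PCS and 754, 783 and 1117 CPM at 6 h PCS. The lowest library at 6 h PCS was thus well above the highest at 0 h PCS, and the libraries of a time point spread by 2.10-fold at 0 h and 1.48-fold at 6 h. The mean was 90.1 ± 41.3 CPM at 0 h and 885 ± 202 CPM at 6 h PCS (n = 3 each). The log2 fold change was 3.30 (SE 0.336, 95% interval 2.52 to 4.07, adjusted p 0.00114 by edgeR). Per exon length and library size, Ccn1 was at 49.5 ± 21.6 FPKM at 0 h and 393 ± 88.6 FPKM at 6 h PCS. It was called in each of the 6 fits that left out 1 library, with log2 fold changes of 3.09 to 3.73.

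Ccn2 (ENSMUSG00000019997, GRCm38 chr10:24595442-24598683), the other gene of the CCN family in the list, was higher on average at 6 h PCS but was not called. Its counts were 4640, 4269 and 6355 at 0 h PCS and 3492, 10605 and 9850 at 6 h PCS. Scaled, they were 199, 155 and 274 CPM at 0 h and 234, 476 and 592 CPM at 6 h PCS. Replicate 1 at 6 h PCS lay inside the range at 0 h PCS, and the other two 6 h libraries lay above it. That library had 33.6% of its read pairs counted on genes, against 39.5% to 41.2% in the other 5, and the lowest TMM factor (0.827, against 0.877 to 1.15), and the part of this in the level of Ccn2 was not tested. The mean was 209.5 ± 59.9 CPM at 0 h and 434 ± 183 CPM at 6 h PCS. The log2 fold change was 1.05 (SE 0.358, 95% interval 0.21 to 1.89, adjusted p 0.132 by edgeR). Without replicate 1 at 6 h PCS the log2 fold change was 1.35 and Ccn2 was called, with an adjusted p of 0.0137 by edgeR, in a fit that called 4.18% of all genes as upregulated. DESeq2 also called it, with a log2 fold change of 1.07 and an adjusted p of 0.0103, and it called 6.4% of all genes as upregulated. Over 16 alternatives, which include the 6 that leave out a library, Ccn2 was called in 2. It did not pass glmTreat, the edgeR test of a change beyond 2-fold. In the others its adjusted p ran from 0.0103 by DESeq2 to 0.334 by edgeR without the low-count filter. It was 0.0508 by the exact test of edgeR. With the replicate number as a block it was 0.0333 by edgeR, at a log2 fold change of 0.99, short of the 2-fold limit. A RefSeq lncRNA gene, Gm15270, overlaps the span of Ccn2, introns included. Whether they share exons was not checked, and the strand setting of the counting is not stated. The part of Gm15270 in the counts of Ccn2 was not tested.

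The balance of both CCN genes within a library was compared directly, since a ratio of counts does not depend on the scaling of the library. The counts of Ccn1 were 0.691, 0.431 and 0.239 times those of Ccn2 in the 0 h libraries, and 3.22, 1.64 and 1.89 times in the 6 h libraries. Every ratio at 6 h PCS was above every ratio at 0 h PCS. The log2 ratio was -1.27 ± 0.767 at 0 h and 1.11 ± 0.513 at 6 h PCS, a difference of 2.38 that stayed between 1.98 and 2.75 when 1 library was left out. The two-sided exact permutation p was 0.1, the smallest this design allows, and 0.2 after Benjamini-Hochberg adjustment over the 2 ratios that were tested. The counts are not divided by gene length, so the ratio shows the unequal change and not which transcript was more abundant.

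**Figure D2:**
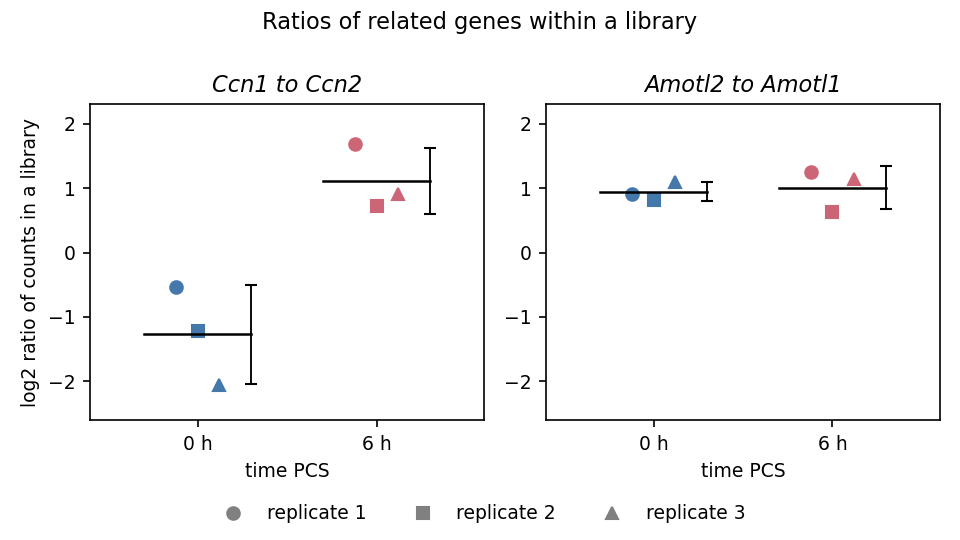
Ratio of counts within each library on a log2 axis, for Ccn1 to Ccn2 and for Amotl2 to its paralog Amotl1, at 0 h and 6 h PCS (3 libraries each, points, with the mean and SD). The Ccn1 to Ccn2 ratios are separated between the time points, and the Amotl2 to Amotl1 ratios overlap.

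Ankrd1 (ENSMUSG00000024803, GRCm38 chr19:36111965-36119844) had low counts and a clear increase. Its counts were 89, 64 and 55 at 0 h PCS and 173, 209 and 358 at 6 h PCS, which gave 3.82, 2.33 and 2.37 CPM at 0 h and 11.6, 9.38 and 21.5 CPM at 6 h PCS. All 6 h libraries were above all 0 h libraries, and replicate 3 at 6 h PCS was 2.29 times as high as replicate 2 of that time. The mean was 2.84 ± 0.851 CPM at 0 h and 14.2 ± 6.47 CPM at 6 h PCS. The log2 fold change was 2.32 (SE 0.373, 95% interval 1.49 to 3.15, adjusted p 0.00516 by edgeR). Without replicate 3 at 6 h PCS it was 1.88, and Ankrd1 was called in each of the 6 fits that left out a library. In a test of whether the change exceeded 2-fold, the adjusted p of Ankrd1 was 0.0518 by glmTreat of edgeR, a test passed upward by 1.29% of all genes, and over its 16 alternatives the adjusted p ran from 9.43e-11 to that value. As Ankrd1 is known as a gene of cardiac and skeletal muscle, the striated muscle genes were inspected, and the 2 of 11 that could be named, Ckm and Ttn, summed to 5.07 to 11.5 CPM at 0 h and 6.11 to 10.7 CPM at 6 h PCS.

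Amotl2 (ENSMUSG00000032531, GRCm38 chr9:102717091-102733418), an angiomotin family protein that binds YAP at cell junctions, was at 207, 184 and 221 CPM at 0 h PCS and at 264, 198 and 282 CPM at 6 h PCS. Replicate 2 at 6 h PCS lay within the 0 h range, and the other two 6 h libraries lay above it. The mean was 204 ± 19.1 CPM at 0 h and 248 ± 44.5 CPM at 6 h PCS. The log2 fold change was 0.28 (SE 0.163, 95% interval -0.08 to 0.65, adjusted p 0.341 by edgeR). The interval leaves out a doubling or more in either direction. With scaling on library size alone, which moved the median of all genes to -0.318, the log2 fold change of Amotl2 was -0.048.

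Lats2 (ENSMUSG00000021959, GRCm38 chr14:57689662-57746212), a kinase that phosphorylates YAP and TAZ, was at 19.9, 11.9 and 16.2 CPM at 0 h PCS and at 13.7, 15.6 and 20.9 CPM at 6 h PCS. The 2 time points overlapped over most of their range. The mean was 16.0 ± 4.02 CPM at 0 h and 16.7 ± 3.70 CPM at 6 h PCS. The log2 fold change was 0.07 (SE 0.245, 95% interval -0.48 to 0.61, adjusted p 0.898 by edgeR), and its sign turned with scaling on library size alone (-0.24) and without replicate 3 at 6 h PCS (-0.12) or replicate 2 at 0 h PCS (-0.11). Over the 16 alternatives Amotl2 and Lats2 were called in 0, and the smallest adjusted p was 0.182 for Amotl2 and 0.546 for Lats2. A snoRNA gene, Gm26440, and a protein coding gene, Gm52140, overlap the span of Lats2 in RefSeq, introns included. Whether they share exons with Lats2 was not checked, and their part in its counts was not tested.

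The 5 genes thus differed in size of change, from 0.07 to 3.30 on the log2 scale. The 95% intervals of Ccn1 and Ankrd1 both lay above the interval of Amotl2, and the interval of Ccn2 overlapped those of Ankrd1, Amotl2 and Lats2. When each profile of log2 CPM over the 6 libraries was centered on its own mean, the root mean square distance was 0.614 between Ccn1 and Ankrd1, 0.269 between Amotl2 and Lats2, and 1.66 between Ccn1 and Lats2. Ccn2 was nearest to Lats2 (0.570) and Amotl2 (0.599), and farther from Ankrd1 (0.805) and Ccn1 (1.30).

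All 5 genes had their highest level in the same library, replicate 3 at 6 h PCS, which was the highest library for 20.2% of all genes tested. With scaling on library size alone, replicate 3 at 6 h PCS was the highest library for 3 of the 5 genes (11.7% of all genes tested), so the shared maximum depends in part on the scaling. The lowest library was replicate 2 at 0 h PCS for 4 of the 5 genes with TMM scaling (17.2% of all genes tested) and for 3 of the 5 with scaling on library size alone (11.4%). The libraries of a time point spread by up to 2.10-fold at 0 h and 2.53-fold at 6 h among the 5 genes, where the median spread of all genes tested was 1.43-fold at 0 h and 1.59-fold at 6 h PCS.

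**Figure D3:**
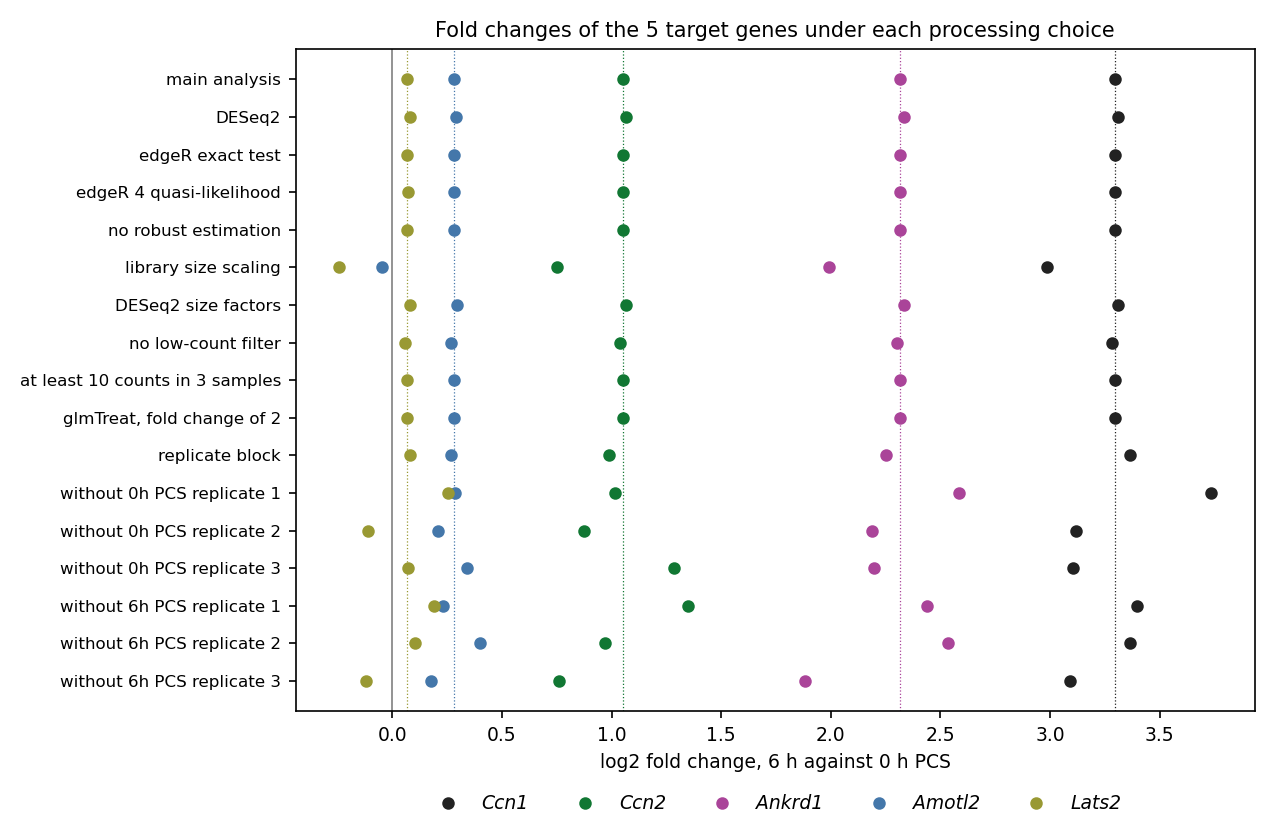
Log2 fold change of each of the 5 genes (points, colored by gene), 6 h against 0 h PCS, in the reported fit (top row, dotted lines) and under each of 16 alternatives, including the 6 fits without 1 library. Ccn1 stays at 2.99 or above, Ankrd1 at 1.88 or above and Ccn2 between 0.75 and 1.35, while Amotl2 falls below 0 with scaling on library size alone and Lats2 there and in 2 of the fits without a library.

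Other genes known as YAP and TEAD targets were examined from a list of 17, of which 12 could be named and were tested. Of these, 5 were upregulated and 0 downregulated, and 8 were higher at an unadjusted p under 0.05. Their median log2 fold change was 0.92. Genes that could be named lean toward changed genes, because many names came from tables of changed genes, so that 11.6% of all named genes tested were upregulated, 26.4% were higher at an unadjusted p under 0.05, and their median log2 fold change was 0.186. F3, the gene of tissue factor, which starts blood coagulation, rose from 4.47 ± 1.42 to 121 ± 53.4 CPM, a log2 fold change of 4.76 (SE 0.476, adjusted p 0.00242 by edgeR), which is above that of each of the 5 genes. Gadd45a, a gene of the DNA damage and growth arrest response, rose from 19.3 ± 6.28 to 81.9 ± 15.7 CPM, by 2.09 on the log2 scale (SE 0.240). Igfbp3, which encodes a binding protein of insulin-like growth factors, rose by 2.25 (SE 0.562, adjusted p 0.0372 by edgeR) from a low level of 0.942 ± 0.472 CPM, and it was called in 2 of the 6 fits without a library. Fjx1, which encodes a protein related to the Golgi kinase Four-jointed, rose by 1.35 (SE 0.223). The growth factor gene Tgfb2 rose from 474 ± 44.3 to 1007 ± 156 CPM, by 1.09 (SE 0.157, adjusted p 0.0029 by edgeR), and was not called without replicate 3 at 6 h PCS, where its log2 fold change was 0.95, or with scaling on library size alone, where it was 0.77.

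The remaining 7 targets did not pass, with log2 fold changes from -0.33 for the kinase gene Nuak2 to 0.98 for the receptor tyrosine kinase gene Axl. Axl was at 19.3, 17.0 and 26.1 CPM at 0 h PCS and at 21.6, 42.6 and 58.7 CPM at 6 h PCS. As for Ccn2, replicate 1 at 6 h PCS lay inside the 0 h range while the other two lay above it. Axl was also the gene with the profile most like that of Ccn2 among all genes tested, at a root mean square distance of 0.0917, followed by Zc3hav1 (0.144) and Tgfbr2 (0.152). Without replicate 1 at 6 h PCS, 6 of the targets were called, with Axl added, and without replicate 3 at 6 h PCS 3 were called, F3, Gadd45a and Fjx1.

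**Figure D4:**
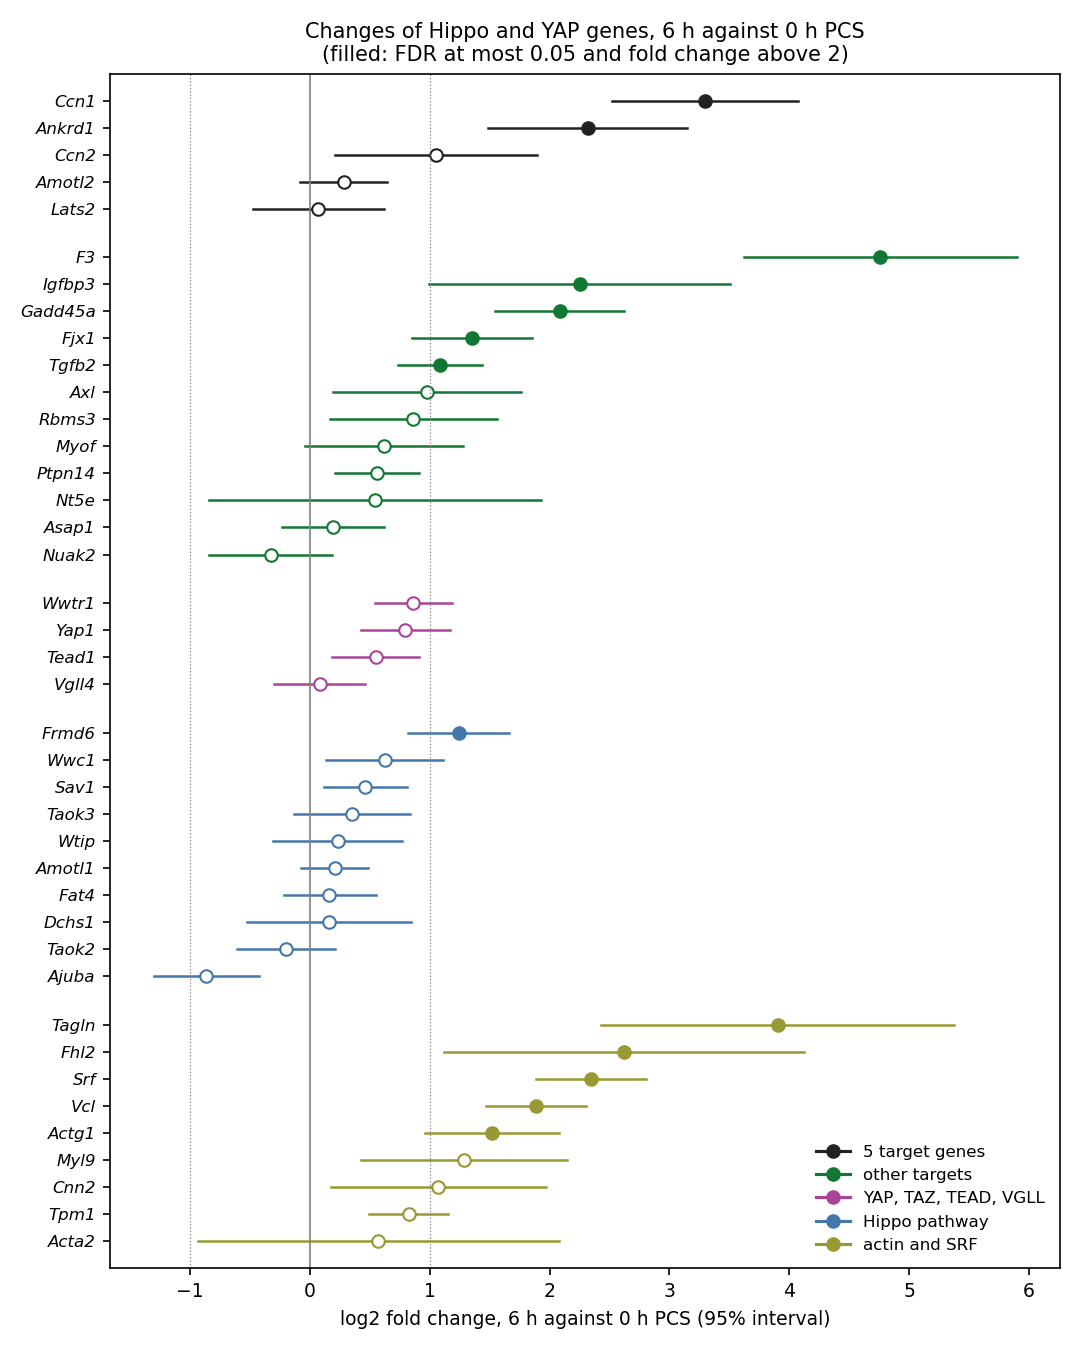
Log2 fold change with its 95% interval, 6 h against 0 h PCS, for the 5 genes, the other YAP and TEAD targets, YAP, TAZ and their partners, the Hippo pathway genes and the actin and SRF genes that were tested. Filled points are DEGs, and dotted lines mark a 2-fold change. The targets run from Nuak2 below 0 to F3 at 4.76, and no gene of YAP, TAZ and their partners is filled.

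The transcripts of YAP itself and of its partners changed less than those of Ccn1 and Ankrd1. Of 10 genes on this list 4 were tested, and 0 were DEGs by edgeR, by DESeq2 or by the exact test, while 3 were higher at an unadjusted p under 0.05 (26.4% of named genes). Yap1 was at 88.8, 67.3 and 99.7 CPM at 0 h PCS and at 141, 137 and 166 CPM at 6 h PCS. Wwtr1, the gene of TAZ, was at 41.6, 41.1 and 34.9 CPM at 0 h and at 63.1, 77.3 and 73.9 CPM at 6 h PCS. In both genes every 6 h library was above every 0 h library, as in 15.3% of all genes tested. The log2 fold changes of 0.80 for Yap1 (SE 0.167, adjusted p 0.0171 by edgeR) and 0.86 for Wwtr1 (SE 0.145, adjusted p 0.0064 by edgeR) passed the limit on p but not the 2-fold limit. With scaling on library size alone neither passed the limit on p, with log2 fold changes of 0.48 for Yap1 and 0.56 for Wwtr1, and Yap1 also did not pass it without replicate 1 or without replicate 2 at 0 h PCS. The limit on p alone was passed upward by 6.31% of all genes tested. The share among named genes, which lean toward changed genes, was not counted for this limit. Tead1 was at 100.96 ± 13.6 CPM at 0 h and 148 ± 24.5 CPM at 6 h PCS, with a log2 fold change of 0.55 (adjusted p 0.0700 by edgeR), and Vgll4, which encodes a cofactor that competes with YAP for TEAD, had 0.08 (adjusted p 0.817 by edgeR).

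Among the genes of the Hippo pathway upstream of YAP, 10 of 21 were tested, 1 was upregulated and 0 were downregulated, with a median log2 fold change of 0.22. This share is near the 11.6% of named genes that were upregulated, and the median is near their 0.186. The upregulated gene was Frmd6, a FERM domain protein known as an upstream activator of the pathway, which rose from 93.2 ± 24.0 to 221 ± 14.6 CPM, by 1.24 on the log2 scale (SE 0.189, adjusted p 0.00386 by edgeR). It was called in all 6 fits without a library and was not called with scaling on library size alone, where its log2 fold change was 0.93. Ajuba, named after its values were seen, encodes a LIM protein that binds LATS kinases and restrains them. It had -0.87 (SE 0.196, adjusted p 0.025 by edgeR), past the limit on p, as were 2.02% of all genes downward, but not the 2-fold limit, and was called as downregulated with scaling on library size alone and without replicate 2 at 0 h PCS. The other 8 genes, Sav1, Wwc1, Taok2, Taok3, Wtip, Amotl1, Fat4 and Dchs1, were between -0.20 and 0.62. Lats1, the paralog of Lats2, and Stk3 and Stk4, the genes of the MST kinases, were not analysed here.

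Of the paralogs of the 5 genes, 3 of 9 were tested, and 0 were DEGs by edgeR, DESeq2 or the exact test, with 1 higher at an unadjusted p under 0.05 (26.4% of named genes). Amotl1, the paralog of Amotl2, was at 110, 105 and 103 CPM at 0 h PCS and at 111, 127 and 129 CPM at 6 h PCS, with a log2 fold change of 0.21 (SE 0.125, adjusted p 0.366 by edgeR), which became -0.10 with scaling on library size alone. The ratio of Amotl2 to Amotl1 counts was 1.88, 1.75 and 2.15 at 0 h PCS and 2.39, 1.55 and 2.20 at 6 h PCS. These ratios overlapped, and their log2 values differed by 0.067 (two-sided exact permutation p 0.8, adjusted over 2 ratios 0.8). Among the other CCN genes, Ccn3 was at 0.644, 0.910 and 2.24 CPM at 0 h and 0.804, 6.24 and 5.53 CPM at 6 h PCS. Its replicate 1 at 6 h PCS again lay inside the 0 h range, and its log2 fold change of 1.74 (SE 0.743) had an adjusted p of 0.198 by edgeR. Ccn3 was called without replicate 1 at 6 h PCS, and Ccn5 had a log2 fold change of -0.41 (SE 0.599, adjusted p 0.735 by edgeR).

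Genes of the actin cytoskeleton and of serum response factor (SRF), a transcription factor that responds to actin and also has Ccn1 and Ccn2 among its known targets, were examined as a related list. Of 13 genes 9 were tested, 5 were upregulated and 0 downregulated, with a median log2 fold change of 1.52, where 11.6% of all named genes tested were upregulated with a median of 0.186. Srf itself was at 20.1, 13.7 and 14.5 CPM at 0 h PCS and at 67.2, 78.8 and 99.97 CPM at 6 h PCS, a log2 fold change of 2.35 (SE 0.207, adjusted p 0.000267 by edgeR). The focal adhesion gene Vcl rose from 117.0 ± 7.88 to 433 ± 107 CPM, by 1.89 (SE 0.186). The cytoplasmic actin gene Actg1 rose from 230.3 ± 19.1 to 661 ± 239 CPM, by 1.52 (SE 0.249). Tagln, an actin-binding protein of smooth muscle, rose by 3.90 (SE 0.601) and was called in 4 of the 6 fits without a library, and Fhl2, a LIM protein that binds SRF, rose by 2.62 (SE 0.672) and was called in 1 of them. With the replicate number as a block, Tagln and Fhl2 were not called (adjusted p 0.0931 and 0.0637 by edgeR). Tagln was at 21.9, 62.5 and 94.3 CPM in replicates 1 to 3 at 6 h PCS. In the same libraries the smooth muscle genes Myh11 (25.1, 36.3 and 169 CPM) and Acta2 (57.6, 125 and 284 CPM) and the sum of the pigment cell genes (77.3, 455 and 1962 CPM) had the same order. The same order was seen for the other 4 upregulated genes of the list, Srf, Vcl (341, 408 and 550 CPM), Actg1 (411, 687 and 886 CPM) and Fhl2 (0.871, 2.96 and 3.97 CPM). It was also seen for Ccn1, and for Ccn2 (234, 476 and 592 CPM) and Lats2 (13.7, 15.6 and 20.9 CPM), which were not called. Ankrd1 and Amotl2 did not have it. The share of all genes tested with this order was not counted. The part of these markers in the changes was not tested. Without replicate 2 or without replicate 3 at 0 h PCS the DEGs of the list were 3, Srf, Vcl and Actg1.

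Among the genes with the profiles most like Ccn1 were Maff (root mean square distance 0.191) and Gm38357 (0.235). Those nearest to Ankrd1 were Arhgap45 (0.179), Irs2 (0.200) and Ppp1r15a (0.201). For Amotl2 they were Slc12a7 (0.0470), ENSMUSG00000054263 (0.0526) and Pappa (0.0538), and for Lats2 they were Lrwd1 (0.0469), ENSMUSG00000073787 (0.0905) and ENSMUSG00000030649 (0.0971). These distances were taken over 6 libraries and 16810 genes and describe likeness of level only.

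Markers of other cells that a capsule could carry were compared between the time points as sums over each list. The pigment cell genes, of which 4 of 5 could be named, summed to 51.3 to 209 CPM at 0 h PCS and to 77.3, 455 and 1962 CPM in replicates 1 to 3 at 6 h PCS. The corneal epithelium genes Krt12 and Krt5, 2 of 4, summed to 0.764 to 14.7 CPM at 0 h and to 69.1 to 104 CPM at 6 h PCS. Replicate 1 at 6 h PCS, in which the pigment sum lay within the 0 h range, had 754 CPM of Ccn1 and 11.6 CPM of Ankrd1, both above all 0 h libraries, and 234 CPM of Ccn2, inside the 0 h range. The corneal genes were higher in every 6 h library than in every 0 h library, as were Ccn1, Ankrd1 and 15.3% of all genes tested. Krt12 and Krt5 had log2 fold changes of 4.23 and 3.21 (adjusted p 0.0792 and 0.146 by edgeR). DESeq2 and the exact test called both as upregulated, where they called 6.4% and 5.96% of all genes tested. Their part in the changes of Ccn1 and Ankrd1 was not tested.

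The 6 leukocyte genes of 9 summed to 13.5 to 22.6 CPM at 0 h and 16.8 to 32.2 CPM at 6 h PCS, and 1 of them was called, the macrophage gene Cd68, at 0.619 to 1.51 CPM at 0 h and 3.95 to 9.32 CPM at 6 h PCS (log2 fold change 2.55, SE 0.499, adjusted p 0.0129 by edgeR). The called share, 1 of 6, stands beside 11.6% of named genes upregulated. Cd68 was not called without replicate 1 at 0 h PCS or without replicate 3 at 6 h PCS. The 4 endothelial genes of 5 summed to 4.09 to 26.2 CPM at 0 h and 19.9 to 36.9 CPM at 6 h PCS, with Kdr at 25.0 CPM in replicate 2 at 0 h PCS. Pecam1 and Cdh5 were higher in every 6 h library, as were 15.3% of all genes tested (log2 fold changes 1.98 and 3.33, adjusted p 0.0644 and 0.0529 by edgeR), and DESeq2 and the exact test each called 2 of the 4 as upregulated, where they called 6.4% and 5.96% of all genes tested. The part of these cells in the changes of Ccn1 and Ankrd1 was not tested. The 6 stromal and smooth muscle genes of 8 summed to 382 to 419.6 CPM at 0 h and 312 to 532 CPM at 6 h PCS. Within this sum the genes differed. The smooth muscle gene Myh11 was at 169 CPM in replicate 3 at 6 h PCS and at 8.14 to 36.3 CPM in the other 5 libraries. The collagen gene Col1a1 was at 5.90 to 14.6 CPM at 0 h and at 3.95, 37.7 and 116 CPM in replicates 1 to 3 at 6 h PCS. Pdgfra (-0.73, adjusted p 0.0179 by edgeR) and Dcn (-1.52, adjusted p 0.161 by edgeR) were lower in every 6 h library than in every 0 h library and were not called. A separation of the time points, in either direction, was seen for 30.6% of all genes tested. With scaling on library size alone both were called as downregulated, as were 3.73% of all genes tested. Replicate 3 at 6 h PCS also held the highest level of all 5 genes, and without it Ccn1 and Ankrd1 were still called. No listed marker that could be named had a count of 0 in any library.

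**Figure D5:**
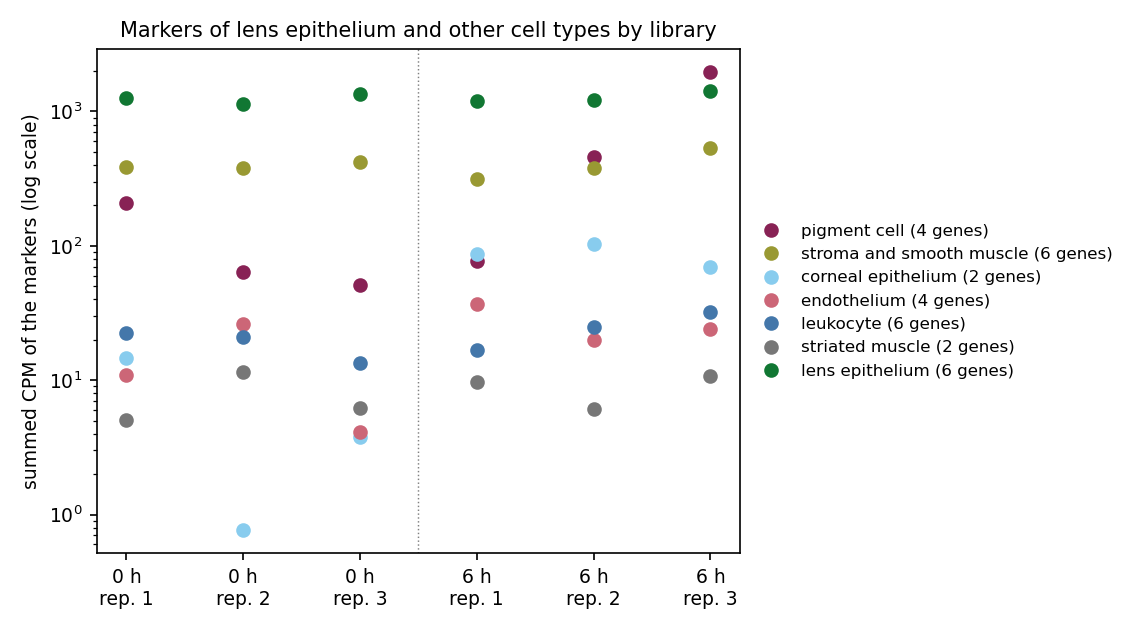
Summed level (CPM, log axis) of the marker genes of each cell type that could be named, in each of the 3 libraries at 0 h PCS and the 3 at 6 h PCS (points). The lens epithelium sums, in which Epha2 is higher and Pitx3 and Sox2 lower at 6 h PCS, run from 1139 to 1415 CPM, the pigment cell sums run up to 1962 CPM in replicate 3 at 6 h PCS, and the corneal epithelium sums are separated between the time points.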

How the data were processed

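RNAseq was performed on 6 pools of lens capsules, 3 at each time point. According to the labels and methods, total RNA was ribodepleted and amplified with the SMARTer Stranded Pico kit, and the authors aligned paired reads to GRCm38 with HISAT2 and counted pairs per Ensembl gene with HTSeq. The deposited values are these raw counts, one table per library. Strand setting and trimming are not given in the sources used here. HTSeq summary rows were left out, as 58.8% to 66.4% of the pairs were not counted on genes. The reads carry PCR duplicates and the counts no molecular identifiers.

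Counts were analysed with edgeR 4.0.16 in R 4.3.3 (TMM, filterByExpr by group, robust legacy quasi-likelihood F-test, following the methods). SE is the absolute log2 fold change divided by the square root of F. The fit was tested on simulated data. The comparison was between groups given by the labels. Symbols came from identifier and symbol pairs in the study's supplementary tables, which named 7014 of 55421 genes and 6363 of the tested genes, and the identifier of Lats2 was given with the gene list. The authors' own fold changes and p-values in those tables were not used. Exon length was at hand for Ccn1 but not for the other 4 genes, so levels were not compared between them. Coordinates are of RefSeq GRCm38.p6. The 5 genes and all lists were chosen with earlier results of these data known. Named genes were the 5 genes, called genes of each list (at most 8), all YAP, TAZ, TEAD, VGLL genes and paralogs, and the 3 nearest profiles per gene, with exceptions stated in the text. Genes of the lists without a symbol pair were not analysed here. Some items that these rules select are not reported here.

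The alternatives were DESeq2 1.42.0, the exact test, the edgeR 4 method, no robust estimation, scaling by library size or DESeq2 size factors, leaving off the low-count filter or asking for 10 counts in 3 samples, glmTreat against a fold change of 2, the replicate number as a block, FPKM on TMM sizes, and leaving out each library. The counts of replicates differed beyond sampling noise (chi-square per degree of freedom 25.1 to 83.2).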

Additional observations from a re-analysis of the deposited data

How the results depend on the processing

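With 3 pools per group, leaving out 1 library left a group with 2, and Ankrd1 rests on 55 to 358 counts per library. In all 16810 genes, 762 were upregulated and 138 downregulated; downregulated DEGs were 256 with DESeq2, 253 with the exact test, 627 with scaling on library size alone, 257 without a filter on low counts and 4 with glmTreat, and upregulated DEGs 217 with glmTreat. Scaling on library size alone moved the median of all genes to -0.318 and the upregulated to 572. Without 1 library, 510 to 742 were upregulated and 43 to 140 downregulated. With glmTreat, 1 of the 5 genes, Ccn1, was called, Ankrd1 lost its call (log2 fold change 2.32, adjusted p 0.0518 by edgeR), and the calls were 2 of the other targets, 0 of the Hippo genes and 2 of the actin and SRF genes. Ccn2 was called with DESeq2 (1.07). With scaling on library size alone, Amotl2 was at -0.048, Lats2 at -0.24, Vgll4 at -0.24 and Amotl1 at -0.10, and 0 Hippo genes were upregulated and 1, Ajuba, downregulated. Without a filter on low counts, 1 paralog, Ccn3, was upregulated. Without 1 library the upregulated genes were 2 to 3 of the 5, 3 to 6 of the other targets, 0 to 1 of the paralogs and 3 to 6 of the actin and SRF genes, and the downregulated Hippo genes 0 to 1. The log2 fold changes were 0.76 to 1.35 for Ccn2 and -0.12 to 0.25 for Lats2, and -0.07 (without replicate 2 at 0 h PCS) to 0.18 for Vgll4. Libraries of the same replicate number deviated together with correlations of 0.00365, 0.223 and 0.139, and libraries of replicates 2 and 3 but not 1 correlated best with their own number. The numbers were therefore not taken to pair the libraries, and whether pools share mice was not settled. With the replicate block, 1050 genes were called, 2 of the 5 genes, and 3 of the actin and SRF genes, Tagln and Fhl2 being lost. The causes were not tested. Of 18 other named genes, 24 values under an alternative lost the call, 2 gained it (both Ccn3), 3 turned sign (Vgll4 and Amotl1, above) and 259 kept both. Outside these 18, genes of the lists that gained a call under at least 1 alternative were Axl, Ajuba, Myl9, Cnn2, Pitx3, Sox2, Pecam1, Cdh5, Krt12, Krt5, Myh11, Dcn and Pdgfra.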
